A study of Homo sapiens with 4 samples.

Results

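The EGF receptor family and its ligands were examined in RNA-seq data of MCF10A cells, a non-tumorigenic human breast epithelial line that is grown in medium containing EGF. The 10 genes followed here were listed by name: the receptors EGFR, ERBB2 and ERBB3, the ligands AREG, EREG, HBEGF, TGFA, BTC and NRG1, and the receptor inhibitor ERRFI1. All 10 were found among the 63856 genes of the count table by Ensembl identifier and among the 22321 rows of the normalized table by symbol, and all 10 were among the 15830 genes that passed the filter on low counts. The wild type (WT) group held 2 libraries of unmodified cells, and the HSF1-pLVX group held 2 libraries of cells stably transduced with a lentivirus carrying HSF1, the heat shock transcription factor, and selected with puromycin. Cells with the empty vector were not analysed here, so effects of HSF1, of the vector and of selection cannot be told apart. The study describes the replicates as biological, and no source used here says whether the HSF1-pLVX cells were a pool or a clone.

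Receptors of this family are tyrosine kinases that pair with one another when a ligand binds outside the cell. EGFR binds EGF, TGFA, AREG, EREG, HBEGF, BTC and EPGN, whereas ERBB3 binds the neuregulins such as NRG1, has little kinase activity of its own and signals mainly with ERBB2, which has no known ligand. The ligands are made as membrane proteins and released by proteases of the ADAM family, and the signal runs through RAS and ERK and through PI3K and AKT. In the mammary gland AREG is known for its part in ductal growth, and MCF10A cells are known to depend on EGF for growth.

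The 10 genes split evenly. EGFR, AREG, EREG, HBEGF and NRG1 were higher in HSF1-pLVX cells, and ERBB2, ERBB3, TGFA, BTC and ERRFI1 were lower, each at an adjusted p under 0.05 in edgeR's quasi-likelihood test. Among all 15830 genes tested, 32.7% were called higher and 33.2% lower, 65.9% in either direction. That share depended on the setting, being 40.8% of 19978 genes with DESeq2, 33.4% of 32631 genes with no filter on low counts and 46% of 16580 genes without HSF1-pLVX replicate 2. At least 2-fold changes were found upwards for AREG, EREG and NRG1, against 14.9% of all genes tested, and downwards for ERBB2, ERBB3, TGFA and ERRFI1, against 14% of all genes. In each of the 10 genes both libraries of one group lay above both of the other, as they did for 83.1% of genes tested, 42.1% with HSF1-pLVX above and 41% with HSF1-pLVX below. With 2 libraries on each side the smallest p of an exact permutation test is 0.333, so every test here borrows the spread of other genes. HSF1 itself rose from 200.4 and 189.2 CPM (counts scaled to the library total with TMM factors) in the WT libraries to 982.4 and 998.6 CPM in the HSF1-pLVX libraries, counting introduced and endogenous transcripts together.

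**Figure D1:**
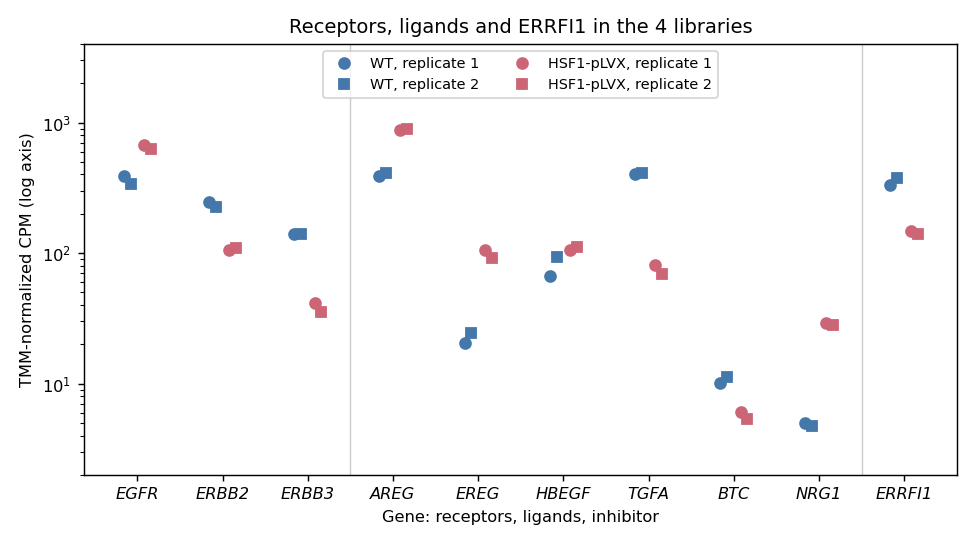
TMM-normalized CPM of each gene (log axis) in the 2 WT libraries (blue) and the 2 HSF1-pLVX libraries (red), with circles for replicate 1 and squares for replicate 2. Points of the groups lie apart in every gene and come closest in HBEGF, where the higher WT library reached 94.1 CPM and the lower HSF1-pLVX library 105 CPM.

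EGFR, the receptor for EGF and most ligands of the family, was the one receptor that rose. It stood at 391.7 and 339.8 CPM in WT replicates 1 and 2 and at 674 and 630 CPM in HSF1-pLVX replicates 1 and 2. The HSF1-pLVX libraries were both higher, and the difference exceeded the spread within either group. This amounted to 0.83 in log2 units (SE 0.102), a 1.78-fold rise (95% interval on the log2 scale 0.61 to 1.05, edgeR adjusted p = 5.49e-06). The gene lies on chromosome 7 of hg38 from 55019021 to 55211628 on the plus strand. Of its 12521 exonic bases, 186 are also exon of the antisense gene EGFR-AS1, which held between 7 and 20 counts per library.

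ERBB2, the co-receptor without a ligand of its own, fell. Its level was 245 and 224.4 CPM in the WT libraries and 105.5 and 109.3 CPM in the HSF1-pLVX libraries. The HSF1-pLVX libraries were both below the WT libraries and close to each other. On the log2 scale the difference was -1.13 (SE 0.0901, 95% interval -1.322 to -0.93, edgeR adjusted p = 6.53e-08), a 2.19-fold lower level. ERBB2 spans 39687914 to 39730426 on chromosome 17 of hg38, and 765 of its 10321 exonic bases (7.41%) are also exon of a gene on the other strand, 571 of them of MIEN1 and 194 of PGAP3. MIEN1 fell as well, from 39.8 to 21.3 CPM. Whether the counting used strand is not given in the sources used here, and the part of these shared bases in the fall of ERBB2 was not tested.

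The ERBB2 promoter is shown because it is the only one of the 8 promoters matched among these genes that held an inverted pair of heat shock element units, GAANNTTC. The 300 bases run from 250 before to 50 after the RefSeq start (GRCh38.p14, chr17:39687844-39688143, plus strand), read 5′ to 3′.
ERBB2 promoter: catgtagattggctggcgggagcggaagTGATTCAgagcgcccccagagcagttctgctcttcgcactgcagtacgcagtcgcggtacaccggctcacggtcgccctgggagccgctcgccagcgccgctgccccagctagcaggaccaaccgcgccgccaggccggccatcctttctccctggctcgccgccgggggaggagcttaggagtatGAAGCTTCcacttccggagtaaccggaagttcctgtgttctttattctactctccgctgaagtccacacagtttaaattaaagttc
Capitals mark GAAGCTTC, which begins 36 bases before the start, and TGATTCA, a match to the AP-1 letters TGANTCA that begins 222 bases before it. The letters GAANNTTC occur in 6.87% and TGANTCA in 7.76% of 27305 promoters of the same length, searched on both strands. The other arrangement, TTCNNGAA, was found in 7.84% of all promoters and in 0 of the 8. It did occur in the promoter of the EGFR ligand EPGN, which was searched as well but is not among the 8. There TTCCTGAA begins 249 bases and TTCATGAA 38 bases before the start. These matches describe the letters only. Heat shock elements of 3 units were searched as well, in both orders. Each order was found in 0.487% of all promoters and in 0 of the 8, that of ERBB2 included. A single start was searched for each gene, the first listed, and that of ERBB2 lies within the span of PGAP3 on the other strand. Other starts of ERBB2 were not searched. Promoters of ERBB3 and NRG1 were not used here.

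ERBB3, the neuregulin receptor, fell furthest among the receptors. WT replicates held 140.3 and 140.4 CPM, and HSF1-pLVX replicates held 41.5 and 35.5 CPM. Both HSF1-pLVX libraries were low. This amounted to -1.86 in log2 units (SE 0.0942), 3.64-fold lower (95% interval -2.07 to -1.66, edgeR adjusted p = 6.14e-10). ERBB3 lies on the plus strand of chromosome 12 of hg38, between 56079857 and 56103505. ERBB4, the remaining receptor of the family, had between 0 and 2 counts per library and could not be compared.

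Levels of different genes were compared as CPM per kilobase of the gene model. On this scale the WT cells held 31.3 and 27.1 of EGFR, 23.7 and 21.7 of ERBB2 and 16.2 and 16.2 of ERBB3. The HSF1-pLVX cells held 53.8 and 50.3 of EGFR, 10.2 and 10.6 of ERBB2 and 4.79 and 4.10 of ERBB3. The order of the receptors was thus the same in all libraries, but the distance between them grew. The ratio of EGFR to ERBB2 was 1.318 and 1.248 in the WT libraries and 5.27 and 4.75 in the HSF1-pLVX libraries, and that of EGFR to ERBB3 went from 1.93 and 1.67 to 11.2 and 12.3.
Summed over the receptors, the level per length was 71.2 and 65.1 in WT and 68.8 and 65.0 in HSF1-pLVX libraries, ranges that overlapped. EGFR made up 42.8% ± 1.58 of this sum in WT and 77.8% ± 0.562 (SD, n = 2 per group) in HSF1-pLVX. The share of ERBB2 went from 33.4% ± 0.0476 to 15.6% ± 1.02 and that of ERBB3 from 23.8% ± 1.53 to 6.64% ± 0.455. With the longest coding length in place of the gene model, the share of EGFR was 50.8% in WT and 82.5% in HSF1-pLVX cells, and the sum was 207.8 and 188.1 in WT and 224 and 211.4 in HSF1-pLVX libraries, which did not overlap. Shares within a library sum to the whole, so a higher share of one receptor includes the fall of the others.

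**Figure D2:**
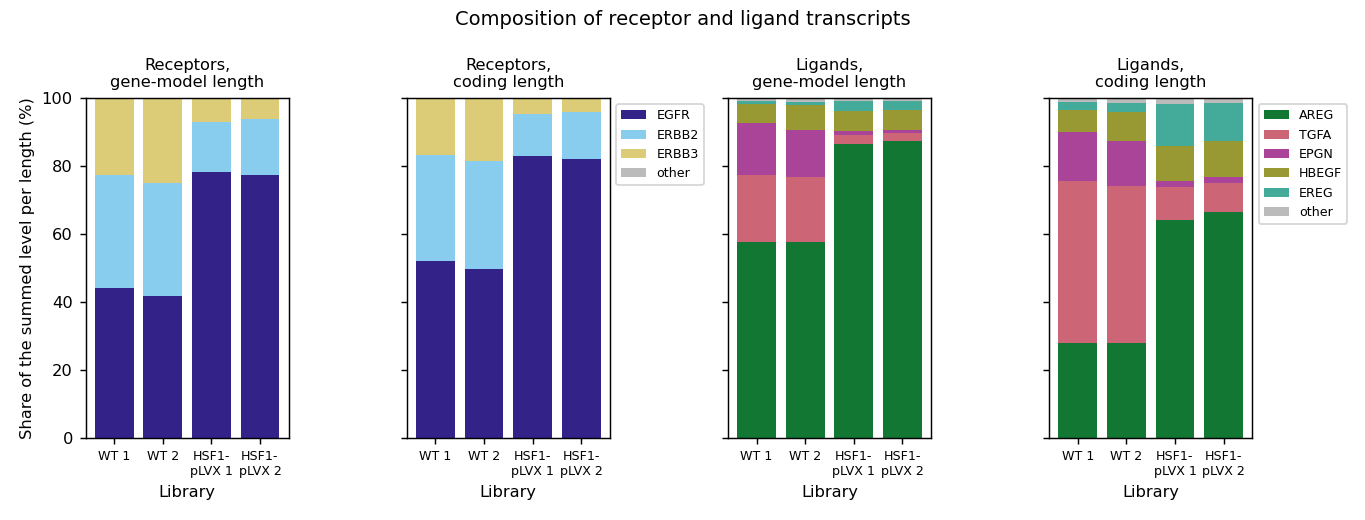
Share (%) of each receptor and each ligand in the summed level per length of its class, as stacked bars for the 4 libraries, with gene-model length and coding length side by side. EGFR takes 42.8% of the receptor sum in WT and 77.8% in HSF1-pLVX cells by gene-model length, and AREG takes 57.5% and 86.9% of the ligand sum.

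Among the ligands, AREG, amphiregulin, was the most abundant per length of gene model in all 4 libraries and rose further. Its level was 386.7 and 408.7 CPM in WT and 871.6 and 899.6 CPM in HSF1-pLVX libraries. Both HSF1-pLVX libraries lay above both WT libraries. On the log2 scale the difference was 1.16 (SE 0.0969), a 2.23-fold rise (95% interval 0.95 to 1.36, edgeR adjusted p = 1.09e-07). AREG occupies 74445134 to 74455009 on the plus strand of chromosome 4 of hg38 and shares no exonic base with another gene of the table.

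The AREG promoter is shown because it carries a whole cAMP response element, TGACGTCA. The labels list cholera toxin, an agent known to raise cAMP, in the medium of both groups. The culture methods of the study do not name it. The 300 bases are those of RefSeq on GRCh38.p14, chr4:74444886-74445185, plus strand, read 5′ to 3′.
AREG promoter: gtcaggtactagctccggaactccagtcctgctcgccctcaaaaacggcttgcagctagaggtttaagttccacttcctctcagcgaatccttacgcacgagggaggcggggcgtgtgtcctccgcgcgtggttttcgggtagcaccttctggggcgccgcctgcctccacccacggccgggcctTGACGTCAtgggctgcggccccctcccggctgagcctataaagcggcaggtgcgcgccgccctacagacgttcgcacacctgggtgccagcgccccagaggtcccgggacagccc
Capitals mark the element, which begins 65 bases before the start. Of all 27305 promoters, 1.98% hold it, and of the 8 promoters of these genes only that of AREG did. The core of the element, TGACG, occurs in 25% of all promoters and in 3 of the 8, those of AREG, EREG and TGFA. It also occurs in the promoter of EPGN. Such matches describe letters only, and a part of cAMP in the level of AREG was not tested.

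EREG, epiregulin, rose more than AREG from a lower level. It was measured at 20.3 and 24.6 CPM in WT and at 105.8 and 91.1 CPM in HSF1-pLVX libraries. The groups lay far apart, and the lower HSF1-pLVX library was more than 3 times the higher WT library. This amounted to 2.13 in log2 units (SE 0.11), 4.39-fold higher (95% interval 1.90 to 2.37, edgeR adjusted p = 7.07e-10).
NRG1, the neuregulin that binds ERBB3, had the largest rise of the 10 genes. Its level was 5.01 and 4.74 CPM in WT and 29.0 and 28.3 CPM in HSF1-pLVX libraries, resting on 94 and 88 counts in WT and 729 and 563 counts in HSF1-pLVX cells. Replicates were close in both groups. On the log2 scale the difference was 2.56 (SE 0.123), a 5.88-fold rise (95% interval 2.29 to 2.82, edgeR adjusted p = 3.76e-10). NRG1 thus rose where its receptor ERBB3 fell. Per length of gene model, ERBB3 exceeded NRG1 by 36.7 and 38.8 times in WT libraries. In HSF1-pLVX libraries it did so by 1.87 and 1.64 times. The choice of length matters here too. By the longest coding length, 4026 bases for ERBB3 and 2139 for NRG1, NRG1 lay above ERBB3 in both HSF1-pLVX libraries and below it in WT. The NRG1 gene model spans 1128574 bases of chromosome 8 of hg38 and joins many alternative transcripts, which the counts per gene do not separate.

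HBEGF, the heparin-binding ligand, gave the smallest and least certain rise. It stood at 67.2 and 94.1 CPM in WT and at 105 and 111.5 CPM in HSF1-pLVX libraries. The WT libraries differed by 0.49 on the log2 scale, more than the difference between the groups. This amounted to 0.43 in log2 units (SE 0.123, 95% interval 0.16 to 0.69, edgeR adjusted p = 7.38e-03), 1.34-fold higher. Without WT replicate 1 it was 0.22 and without WT replicate 2 it was 0.67. The call was lost without WT replicate 1 (edgeR adjusted p = 0.0933), without HSF1-pLVX replicate 2 (edgeR adjusted p = 0.208) and with limma on the deposited normalized values (adjusted p = 0.0575). Under these settings 4 of the 10 genes were called higher, where all genes tested were called higher in 29.5%, 22.8% and 25.9%. Over all alternatives the adjusted p of HBEGF ran from 4.51e-08 to 0.208.

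TGFA, transforming growth factor alpha, was the gene with the deepest fall. WT libraries held 402.6 and 409.2 CPM, and HSF1-pLVX libraries held 80.6 and 69.5 CPM. Both HSF1-pLVX libraries were low, and the WT libraries were nearly equal. On the log2 scale the difference was -2.43 (SE 0.101), 5.40-fold lower (95% interval -2.65 to -2.22, edgeR adjusted p = 9.53e-11). TGFA lies on the minus strand of chromosome 2 of hg38, from 70447280 to 70554193.
BTC, betacellulin, was a low-abundance ligand that fell by less. Its level was 10.02 and 11.2 CPM in WT and 6.01 and 5.39 CPM in HSF1-pLVX libraries, or between 107 and 209 counts. The groups did not overlap. This amounted to -0.89 in log2 units (SE 0.151, 95% interval -1.22 to -0.57, edgeR adjusted p = 0.000121), 1.86-fold lower.

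The mixture of ligands therefore differed between the cultures. Over 11 ligands of the family, the share of AREG per length of gene model was 57.5% ± 0.0749 in WT and 86.9% ± 0.607 in HSF1-pLVX cells, and that of TGFA 19.5% ± 0.511 and 2.45% ± 0.294 (SD, n = 2 each). EREG took 0.934% ± 0.0915 and 2.79% ± 0.337. The ratio of AREG to TGFA was 2.89 and 3.01 in WT and 32.6 and 39.0 in HSF1-pLVX libraries.
The choice of length matters here, because the TGFA gene model is mostly non-coding. By the longest coding length, TGFA held 47% ± 1.085 and AREG 27.9% ± 0.123 of the ligand sum in WT cells, the reverse of their order by gene model, against 9.12% ± 0.915 and 65.2% ± 1.77 in HSF1-pLVX cells. The ligand sum itself rose by gene-model length, from 408.2 and 430.6 to 611.9 and 625.3 CPM per kilobase. By coding length it was 1693 and 1778 in WT and 1658 and 1647 in HSF1-pLVX libraries. Both HSF1-pLVX libraries thus lay slightly below both WT libraries, the reverse direction. Both lengths gave a higher share of AREG and EREG and a lower share of TGFA in HSF1-pLVX cells.

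ERRFI1, also called MIG6, binds the kinase domain of the receptors and blocks it, and is known to be induced by the signal it limits. It was measured at 332.3 and 379.2 CPM in WT and at 146.7 and 140 CPM in HSF1-pLVX libraries. Both HSF1-pLVX libraries were low. On the log2 scale the difference was -1.31 (SE 0.0969), 2.48-fold lower (95% interval -1.52 to -1.10, edgeR adjusted p = 2.86e-08). EGFR and its inhibitor thus moved in opposite directions, and the ratio of EGFR to ERRFI1 per length of gene model went from 0.394 and 0.3 in WT to 1.54 and 1.504 in HSF1-pLVX libraries.

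**Figure D3:**
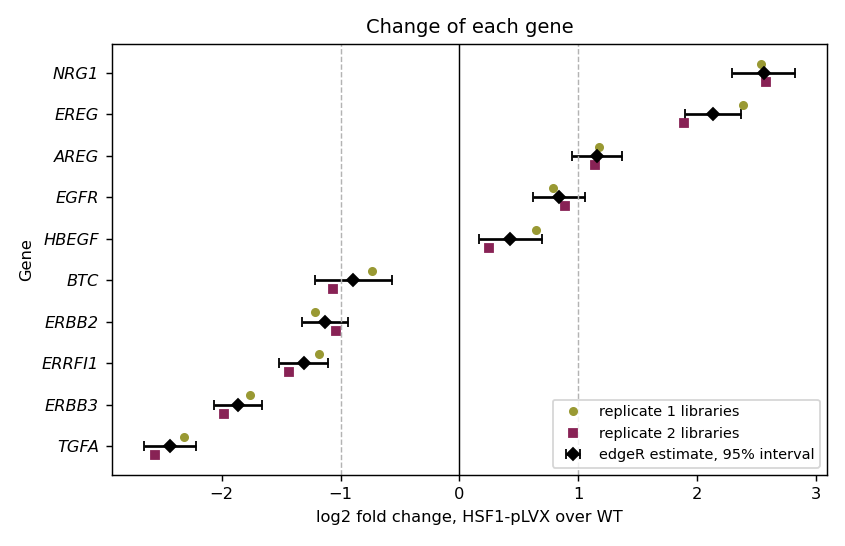
log2 fold change of each gene, HSF1-pLVX over WT, with black diamonds for the edgeR estimate and bars for its 95% interval. Circles and squares give the plain CPM ratio of the replicate 1 and replicate 2 libraries, dashed lines mark 2-fold changes, and no interval crosses 0, that of HBEGF coming nearest with a lower end of 0.16.

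By gene-model length the order of the 10 genes also changed. In WT cells AREG led with 241.3 CPM per kilobase, followed by ERRFI1 with 85 and TGFA with 81.8, whose libraries overlapped, and then by EGFR, HBEGF, ERBB2, ERBB3, EREG, BTC and NRG1. Of these neighbours, the libraries of EGFR and HBEGF, of HBEGF and ERBB2, and of EREG and BTC overlapped as well. In HSF1-pLVX cells AREG led with 537.4, and EGFR came next with 52.1, ahead of HBEGF, ERRFI1, EREG, TGFA, ERBB2, ERBB3, NRG1 and BTC. HBEGF and ERRFI1 overlapped there, and so did EREG and TGFA.

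The study called a gene changed when the ratio of the deposited normalized values was above 2 or below 0.5 in both replicates. By that rule AREG, EREG and NRG1 were higher, where 5% of all 22321 rows were, and ERBB2, ERBB3, TGFA and ERRFI1 were lower, where 6.42% were. EGFR, with ratios of 1.66 and 1.84, HBEGF, with 1.51 and 1.18, and BTC, with 0.612 and 0.511, passed in neither direction. The ratios of ERBB2, 0.419 and 0.486, lay just inside the limit. The deposited values are log2-like, and their transformation is not given in the sources used here.

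EPGN, EREG, AREG and BTC lie side by side on chromosome 4, within 486.2 kb. The members of this cluster did not move together. EPGN, epigen, a further EGFR ligand outside the 10 genes, had 113.3 and 108.8 CPM in WT and 14.4 and 12.8 CPM in HSF1-pLVX libraries, a difference of -3.03 on the log2 scale (SE 0.0962, edgeR adjusted p = 1.00e-11). Its neighbour EREG, which begins 49.8 kb beyond the end of EPGN, rose by 2.13 on the same scale. AREG, 56.4 kb further on, also rose, and BTC, 289.8 kb beyond AREG, fell. Per length of gene model, the ratio of EREG to EPGN went from 0.0569 and 0.0717 in WT to 2.33 and 2.26 in HSF1-pLVX libraries. On the other side of EPGN, MTHFD2L, an enzyme of mitochondrial folate metabolism, rose by 2.12, and beyond BTC the log2 fold change of PARM1 was -0.39 (edgeR adjusted p = 0.0611).

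**Figure D4:**
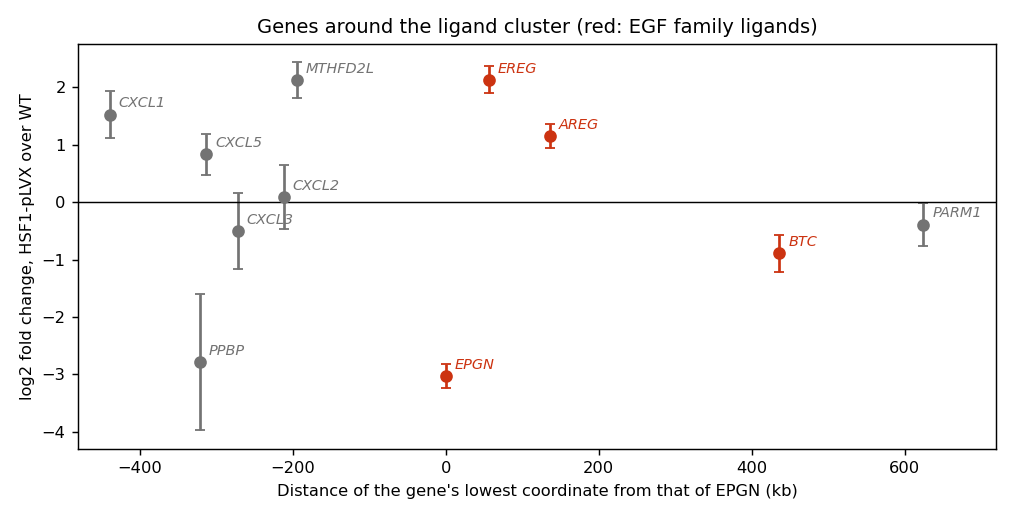
log2 fold change (HSF1-pLVX over WT) of the tested protein-coding genes around the ligand cluster, with 95% intervals, against distance in kb of each gene's lowest coordinate from that of EPGN. EPGN sits at -3.03, next to EREG at 2.13 and AREG at 1.16, and BTC sits at -0.89.

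Genomic neighbours of all 10 genes were read in the same way, taking the 3 nearest tested protein-coding genes on each side. AREG, EREG and BTC are neighbours of one another and share EPGN, so their pairs repeat genes. Of 60 pairs of a gene and a neighbour, the neighbour was called in the same direction in 12, in the opposite direction in 25 and in neither in 23. Of the 48 different neighbours outside the 10 genes, 14 were higher and 14 lower, with a median log2 fold change of -0.10, against 32.7% higher and 33.2% lower among all genes tested. EGFR rose while 5 of its 6 neighbours fell, LANCL2 by 1.17 and VOPP1 by 0.94 on the log2 scale. Distance was not limited, and COBL, which fell, and GRB10, which was not called, lay 3702 and 4226 kb from EGFR. ERBB3 fell while 4 of its 6 neighbours rose, among them the adjacent PA2G4 by 0.59. The largest fall among neighbours was that of EPGN. The largest rise was that of ATP6V1B1 near TGFA, a proton pump subunit with a mean of 0.0805 CPM in WT and 4.25 CPM in HSF1-pLVX cells.

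Of the other receptors and ligands of the family, 4 of 6 could be tested, of which NRG2 and NRG4 were higher and EPGN and EGF lower. Over all genes tested, 65.9% were called in either direction. NRG2 had 0.426 and 0.592 CPM in WT and 3.23 and 4.43 CPM in HSF1-pLVX libraries, a log2 fold change of 2.89 (edgeR adjusted p = 3.04e-06). NRG4 had 0 and 5 counts in WT and 13 and 12 in HSF1-pLVX libraries, so its call rests on few counts. EGF had 26 counts over both WT and 5 over both HSF1-pLVX libraries, a 6.26-fold ratio with an exact 95% counting interval of 2.37 to 20.9. NRG3 had between 0 and 1 counts per library.

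Of 11 genes of ligand release tested, 4 were higher and 6 lower, with a median log2 fold change of -0.41. Over all genes tested the median was 0.02, and 32.7% were higher and 33.2% lower. TIMP3, an inhibitor of ADAM proteases, rose most, with 160.8 and 127.7 CPM in WT and 612.7 and 770.5 CPM in HSF1-pLVX libraries (log2 fold change 2.26, edgeR adjusted p = 2.63e-09). ADAM19, a membrane protease, fell most, by 2.38 on the log2 scale. Values of ADAM17, the protease known to release most of these ligands, were 41.3 and 41.9 CPM in WT and 62.9 and 59.9 CPM in HSF1-pLVX libraries, and it rose by 0.56. The listed proteases ADAM10 and ADAM9 had higher means in WT, 166.4 and 482.2 CPM, and fell by 0.41 and 1.51 on the log2 scale.

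Downstream of the receptors, of 25 adaptors and kinases tested, 4 were higher and 11 lower, 1 in each direction by at least 2-fold. Of all genes tested, 65.9% were called, with changes of 2-fold or more upwards in 14.9% and downwards in 14%. The number called in either direction in this list, in the list of negative regulators and in the endocytosis genes lay near that 65.9%. Changes of at least 2-fold were scarcer than in all genes here and in the endocytosis genes, which had 0 in each direction. In both of these lists more of the called genes were lower than higher. PIK3R1, the regulatory subunit of PI3K, rose by 1.72 on the log2 scale, and MAPK3, the kinase ERK1, fell by 1.27. Of 13 genes listed as negative regulators of the receptors, 4 were higher and 4 lower. Whether each of them, UBASH3B included, limits the receptors in these cells was not tested. LRIG3, of a family of membrane proteins that act on receptor tyrosine kinases, had the largest rise (1.85), and UBASH3B, a phosphatase that binds CBL proteins, the deepest fall (log2 fold change -2.08). Of 10 genes of receptor endocytosis and sorting, 1 was higher and 6 were lower, from SH3KBP1, an adaptor of CBL, at 0.50 to STAM2, a part of the sorting complex on endosomes, at -0.94.
Of 13 tested genes known to be induced by ERK, 4 were higher and 5 lower, with a median log2 fold change of -0.20, and the number called was again near the 65.9% of all genes tested. DUSP4, a phosphatase that acts on ERK, fell by 2.60. EGR1, an immediate early transcription factor, rose by 1.46, but its WT libraries differed widely, at 44.8 and 127.4 CPM, against 205.5 and 267.9 CPM in HSF1-pLVX libraries. WT replicate 2 lay above WT replicate 1 in every tested gene of this list but SPRED1. The list summed to 891.9 CPM in WT replicate 1 and 1092 CPM in WT replicate 2, against 888.6 and 937.4 CPM in HSF1-pLVX libraries. The WT library with more EGR1 was also that with more HBEGF. The part of this difference between the WT libraries in the HBEGF result was not tested.

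**Figure D5:**
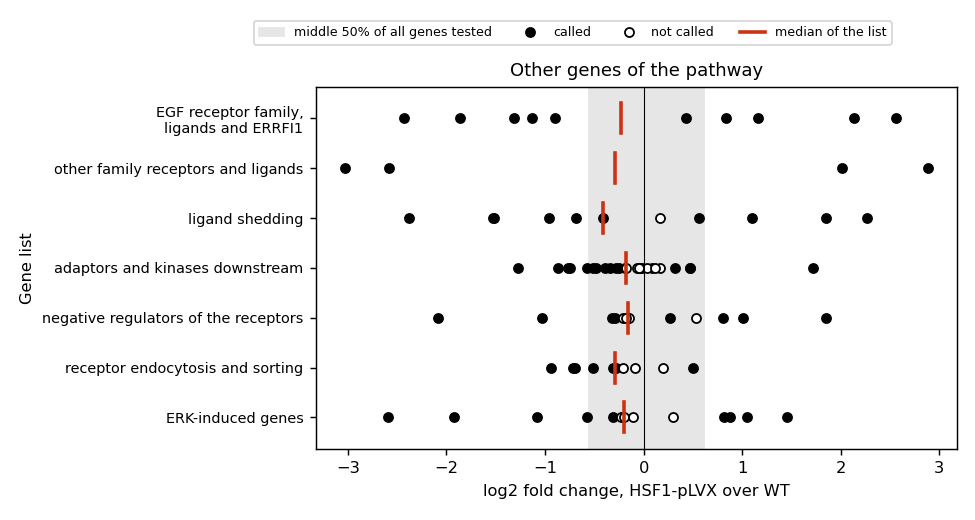
log2 fold change (HSF1-pLVX over WT) of each tested gene in the 10 examined genes and in 6 lists of the pathway, with filled circles for called and open circles for not called genes, red bars for list medians and grey for the middle 50% of all genes tested. List medians lie between -0.41 (ligand shedding) and -0.16 (negative regulators), while the 10 genes lie outside the grey band except HBEGF at 0.43.

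Library totals ran from 18688109 to 24184285 counts. Over the tested genes, log2 ratios had a standard deviation of 0.262 within WT and 0.242 within HSF1-pLVX, and of 0.968 and 1.04 when HSF1-pLVX was set against WT in replicates 1 and 2. Epithelial markers other than PGR were detected in all libraries, with the sums carried mainly by keratin, laminin and integrin genes. The summed level of 8 basal markers was between 20801 and 21845 CPM in WT and between 12065 and 12566 CPM in HSF1-pLVX libraries, and that of 6 luminal markers between 4950 and 5057 CPM against between 815.3 and 1011 CPM, with PGR at 0 counts throughout. Of the basal list 3 markers rose and 4 fell, and of the luminal list 1 rose and 4 fell, where 32.7% of all genes tested were called higher and 33.2% lower. Summed fibroblast markers stood between 7.78 and 10.8 CPM in WT and between 13.9 and 14.9 CPM in HSF1-pLVX libraries. Of these 7 markers 2 could be tested. DCN rose, with 1 and 3 counts in WT and 94 and 87 counts in HSF1-pLVX libraries, and COL1A1 was not called. PDGFRA had 6 and 4 counts in WT and 1 and 1 in HSF1-pLVX libraries, and PDGFRB 2 and 0 against 10 and 5. LUM had 0 counts in 3 libraries and 1 count in the other. Summed endothelial markers stood between 1.94 and 3.04 CPM in WT and between 13.1 and 14.3 CPM in HSF1-pLVX libraries. Of these 4 only KDR could be tested, at 1.86 and 1.45 CPM in WT and 12.3 and 12.9 CPM in HSF1-pLVX libraries. CDH5 had 8 and 4 counts in WT and 5 and 1 in HSF1-pLVX libraries, VWF 7 and 4 against 6 and 4, and PECAM1 7 and 1 against 9 and 23. Summed leukocyte markers were at most 0.538 CPM, with PTPRC at 0 counts. In bulk samples fewer cells of a type and less RNA per cell cannot be told apart, and the part of these marker changes in the results above was not tested.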

How the data were processed

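RNA-seq data of 4 MCF10A libraries, paired-end reads of ribosomal RNA-depleted total RNA, were used as processed by the authors. Raw counts for each gene were deposited, made per the submitters' processing notes with HISAT2 2.0.5 on hg38, SAMtools 1.13 and featureCounts 1.6.5 over an Ensembl annotation. Its strand and multi-mapping settings are not given in the sources used here. The authors also deposited log2-like values normalized with DESeq2 1.32.0, which were used for the study's ratio rule and for 1 alternative. Identifiers were matched to symbols through GENCODE release 44, and coordinates are those of the count table.

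Counts were tested over the whole table with edgeR 4.0.16 in R 4.3.3 (TMM, filterByExpr defaults, quasi-likelihood, no replicate block) with Benjamini-Hochberg adjustment over 15830 genes. Calls are at an adjusted p under 0.05. Standard errors are the log2 fold change divided by the root of F, and 95% intervals use the t distribution with edgeR's total degrees of freedom. CPM are TMM-normalized. Length-scaled levels divide by the merged exon length. The test was tried on simulated counts.

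The genes and lists were chosen with earlier results of these data known. Named beyond the 10 genes were, by rule, the called gene with the largest rise and fall of each list and of the neighbours, and all other family receptors and ligands. ADAM17, ADAM10, ADAM9, SPRED1, EGFR-AS1, MIEN1, PGAP3, LANCL2, VOPP1, COBL, GRB10, PA2G4, MTHFD2L, PARM1 and single markers were named after their values were seen. Alternatives covered normalization, filter, test, block, deposited values and each library left out. Promoters are RefSeq's (GRCh38.p14), taken at the first listed start of each gene. Western blots and other cell lines were not analysed here.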

Additional observations from a re-analysis of the deposited data

How the results depend on the processing

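None of the 10 genes changed direction under any of the 11 alternatives: other normalizations, no filter on low counts, DESeq2's Wald test, a replicate block, a crossed block added after the data were seen, limma on the deposited values, and each library left out. Of 110 values, 107 kept their call, and the 3 lost calls were all of HBEGF. With a library left out, 1 group holds 1 library, which is assumed to vary like the others. Without WT replicate 1, without HSF1-pLVX replicate 2 and under limma 4 genes were called higher in place of 5. Over all genes, DESeq2 called 3734 higher and 4412 lower of 19978 tested, and edgeR 5175 and 5253 of 15830. The planned RefSeq protein length was not run. The coding lengths used in its place, added after the data were seen, moved the share of EGFR from 42.8 to 50.8% in WT and from 77.8 to 82.5% in HSF1-pLVX cells, and that of AREG from 57.5 to 27.9% and from 86.9 to 65.2%.

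The replicate numbers share only a number in the labels. Deviations from the group mean correlated at -0.015 between same-numbered libraries over the tested genes and -0.114 over genes above 8 CPM. With the replicate block 5138 genes were called higher and 5171 lower, with the crossed block 5429 and 5487, and the calls of the 10 genes were unchanged under both. With 2 libraries a group, depth limits genes with few counts, such as EGF, NRG4 and NRG2. HRAS, with between 13 and 17 counts per library, and IER3, with 0, were listed at levels low for genes of such wide use, and the cause was not tested.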
